A study of Mus musculus with 16 samples.

Results

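Apoe, Trem2, Tyrobp, Abca1 and Abcg1 are 5 genes of lipoprotein handling in the brain and spinal cord. Their RNA was followed here in every cell cluster of a single-cell study of the injured mouse spinal cord. For some of the clusters it is also given at every time point. The genes are the 5 symbols of that name among the 55487 gene symbols of the deposited count table, of which 41193 had at least 1 UMI (unique molecular identifier, a tag that marks 1 captured RNA molecule).

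The study examined how removing the Wnt receptor Ryk from astrocytes alters the response to a lesion of the spinal cord. Cells of 16 mice were sequenced, 2 mice in each of 8 conditions: uninjured, and 1, 7 and 14 days after injury, each in 2 genotypes. The conditional knockout (cKO) mice carried Rykfl/fl,GFAPcreERT2, and the WT mice carried Ryk+/+,GFAPcreERT2. Both genotypes thus carried the inducible Cre, both received tamoxifen, and all mice were 8-10 weeks old. The uninjured mice are called Sham in the labels and uninjured in the paper. The Cre was driven by the GFAP promoter, so deletion was limited to cells in which that promoter was active when tamoxifen was given, and the sequenced cells are of every type, not astrocytes alone.

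The count table held 18203 cells in 17 clusters, named by the authors. WT replicate 2 at 1 d had 1 cell with 266 UMIs and was left out, which leaves WT at 1 d with 1 mouse. The other 15 mice had 536263 to 9008729 UMIs, with a median of 3032957. cKO uninjured replicate 1 had 208 cells, with 6 in Cluster 6 and 0 in Cluster 10, so uninjured microglia come from 3 mice: both WT mice and cKO replicate 2.

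Some libraries stood apart. Replicate 1 of WT and of cKO at 1 d and at 7 d, 4 libraries in all, had medians of 414 to 548 UMIs per cell, against 1040.5 to 3637 in the other 11. Of 166 cell barcodes found in more than 1 library, 118 were shared only among these 4, where they marked 332 cells, 44 of them in Clusters 6 and 10. Cell names gave 6 of the 16 mice another condition than the labels, and the deposited cell table gave the labelled condition for all 16. The batch in the cell table equalled the replicate number in all 16 mice. The fits of the 5 genes and the test of the Apoe share were therefore repeated without the shallow libraries and under the conditions that the cell names give, the share was also tested within each batch, and levels without the shallow libraries are given where they moved most. Levels with the conditions of the cell names were taken in microglia alone. Without the shallow libraries 1 mouse is left at 1 d and 2 at 7 d.

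Ryk itself was still measured in the clusters named astrocytes, in both genotypes. Levels are given as CPM, the UMIs of a gene per 1000000 UMIs of the cells concerned, here Clusters 2, 5 and 7. WT mice had 123 and 54.0 CPM when uninjured and 101 at 1 d, then 157 and 116 at 7 d, then 105 and 108 at 14 d. cKO mice had 66.1 and 85.1 CPM when uninjured, then 23.0 and 69.0 at 1 d, 90.1 with 119 at 7 d, and finally 121 with 123 at 14 d. The mean was 109 ± 30.8 CPM (SD, n = 7) in WT and 87.1 ± 34.6 CPM (SD, n = 8) in cKO, from 330 and 521 UMIs, and the ranges of the genotypes overlapped. In Clusters 5 and 7 alone, without Cluster 2, which also held oligodendrocyte markers, the means were 118 ± 30.1 CPM in WT and 97.3 ± 38.9 in cKO. The table counts transcripts of the gene as a whole, and loss of the deleted exons was not analysed here.

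Apolipoprotein E carries cholesterol and other lipids between cells, and in the healthy central nervous system astrocytes are its main source. Cells load it through the transporters ABCA1 and ABCG1, whose genes are switched on by the sterol sensors LXR and RXR when cholesterol accumulates, as it does in phagocytes that take up myelin debris. TREM2, a receptor of microglia and macrophages that binds lipids and lipoproteins including apolipoprotein E, signals through the adaptor TYROBP (DAP12), and microglia in damaged tissue need this pair to take on a lipid-handling state in which Apoe is high.

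In the GENCODE vM21 annotation of GRCm38 (mm10), Apoe (ENSMUSG00000002985.16) lies on the minus strand of chromosome 7 from 19696109 to 19699188. Tyrobp (ENSMUSG00000030579.10) lies on the plus strand of the same chromosome from 30413760 to 30417585. Trem2 (ENSMUSG00000023992.14) and Abcg1 (ENSMUSG00000024030.7) are both on the plus strand of chromosome 17, from 48346401 to 48354147 and from 31057675 to 31117988. Abca1 (ENSMUSG00000015243.4) lies on the minus strand of chromosome 4 from 53030787 to 53159895. Over all cells the table held 254406 Apoe UMIs in 11045 cells, 11450 Trem2 UMIs in 1889 cells, 26611 Tyrobp UMIs in 2495 cells, 6824 Abca1 UMIs in 2821 cells and 2666 Abcg1 UMIs in 1571 cells.

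The cluster names were checked against markers. Cluster 6, named microglial, had P2ry12 and Tmem119 among its leading genes, 4 microglial markers among its 10 leading genes, 29865 CPM of microglial markers in sum and 589 CPM of monocyte and macrophage markers, with Ly6c2 and Cd163 at 0. Cluster 10, also named microglial, was led by Apoc4, Lpl, Gpnmb, Cst7 and Apoc1, with 0 microglial markers among the leading 10. It had 21140 CPM of microglial and 3538 CPM of monocyte and macrophage markers, with Ly6c2 at 0. Clusters 6 and 10 together are called microglia here as the authors named them, and each is also given by number. Of the astrocyte clusters, Cluster 5 was led by Baalc and Aldoc, while Cluster 7 had 0 astrocyte markers among its leading 10, and Cluster 2 had 9213 CPM of astrocyte against 21302 CPM of oligodendrocyte markers. Cluster 16, named myeloid, was led by the neutrophil genes Ngp, Retnlg and S100a9, and Cluster 12, named immune, by H2-Eb1, H2-Aa, Cd74 and Ccr2. Cluster 17, named red blood cells, had 176171 CPM of red cell markers and also 2696 CPM of microglial ones.

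The level of each gene in a cluster is the mean over mice with at least 10 cells there, over all times and both genotypes, with the SD over those mice. Neighbours in an order are said to differ beyond their spread where their means lie further apart than the larger of both SDs. The clusters were made from the expression of these same cells. Orders of clusters, and counts of mice in which Cluster 10 exceeded Cluster 6, are therefore descriptions and no test. Apoe, the lipoprotein itself, was highest in Cluster 10 at 31112 ± 24702 CPM (n = 14), followed by immune Cluster 12 at 13447 ± 17855 (n = 10), Cluster 6 at 8058 ± 9668 (n = 14), astrocyte Cluster 5 at 6267 ± 3226 (n = 14) and astrocyte Cluster 7 at 4629 ± 1521 (n = 15). Schwann cells (Cluster 15) had 2846 ± 2225 CPM (n = 5) and Cluster 2 had 1851 ± 510 (n = 11). Next came oligodendrocyte Cluster 4 at 940 ± 322 CPM (n = 15), Cluster 13 at 820 ± 748 (n = 10), fibroblasts (Cluster 14) at 754 ± 494 (n = 9) and endothelial Cluster 1 at 738 ± 236 (n = 15). The lowest levels were 610 ± 335 CPM in oligodendrocyte precursors (Cluster 11, n = 14), 418 ± 183 in pericytes (Cluster 9, n = 15), 396 ± 260 in oligodendrocyte Cluster 8 (n = 14), 331 ± 183 in neurons (Cluster 3, n = 15), 327 ± 373 in Cluster 16 (n = 5) and 318 ± 72.8 in Cluster 17 (n = 4). The step from Cluster 2 to Cluster 4 is the only one between neighbours beyond their spread. Cluster 12 leans on cKO replicate 1 at 7 d, a shallow library with 58944 CPM: without that mouse it had 8392 ± 8437 CPM, close to Cluster 6, and without all 4 shallow libraries 7239. Cluster 16 had 163 CPM without WT replicate 1 at 1 d.

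Over all times Apoe was thus highest in Cluster 10, while the order of the mean levels in microglia and astrocytes differed between times. In uninjured mice Cluster 6 had 1433 CPM, below the 6605 of Cluster 5 and the 5429 of Cluster 7 (Cluster 5 holds 12273 CPM in WT replicate 1 beside 3563 and 3978, a mean of 3770 without that mouse), and at 1 d it had 1833, below their 5782 and 4400. Cluster 10 had a mean of 13108 CPM in uninjured mice, above both means, and 4220 at 1 d, below both. In uninjured WT replicate 1 it had 8326, below the 12273 of Cluster 5. The order against Cluster 7 at 1 d rests on cKO replicate 2, with 933 CPM in Cluster 10 and 4946 in Cluster 7. WT replicate 1 and cKO replicate 1 had 4726 and 7003 in Cluster 10, above their 3963 and 4292 in Cluster 7. Cluster 10 held 60.5% of all Apoe UMIs, Cluster 6 held 14.7%, Cluster 7 held 6.46% and Cluster 5 held 5.16%. These shares pool all mice, where those at 14 d gave 32608 to 52441 UMIs each and no other more than 21972. In uninjured mice Clusters 2, 5 and 7 together held a mean of 53.6%, against 14.3% in Clusters 6 and 10. Across the mice Apoe in Cluster 10 exceeded that in Cluster 6 in 13 of 14, by a mean log2 ratio of 2.22 ± 1.40 (SD), with 10 CPM added to both sides.

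Trem2, the receptor, was all but limited to Clusters 10 and 6, with 1576 ± 485 and 1263 ± 365 CPM (n = 14 each) and 52.4% and 42.5% of its UMIs. Immune Cluster 12 followed at 429 ± 691 CPM (n = 10), which differs from Cluster 6 beyond their spread, then Cluster 16 at 40.3 ± 70.9 (n = 5), Cluster 17 at 22.3 ± 44.7 (n = 4) and Cluster 15 at 15.9 (n = 5). Single mice weigh on these means: Cluster 12 had 216 ± 157 CPM without cKO replicate 1 at 7 d, which had 2352, Cluster 16 had 9.45 without WT replicate 1 at 1 d, and without cKO replicate 2 at 1 d Cluster 15 had 4.85 and Cluster 17 had 0. The mean of Cluster 17 misses most of its Trem2. Of 91 UMIs there, the mice with at least 10 cells held 6, all in cKO replicate 2 at 1 d. The other 11 clusters had 0.683 CPM (Cluster 7) to 9.25 CPM (Cluster 8), or 0.364 without WT replicate 2 at 14 d and 5.98 without WT uninjured replicate 1, and none of the later steps exceeded the spread. Clusters 10 and 6 did not differ beyond their spread. Within mice, Trem2 was higher in Cluster 10 in 12 of 14, by a log2 ratio of 0.30 ± 0.33.

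Tyrobp, the adaptor, which serves many receptors of myeloid cells, had a wider range among them. It stood at 3732 ± 1432 CPM in Cluster 10 (n = 14), 3182 ± 1516 in Cluster 16 (n = 5), 2276 ± 1182 in Cluster 12 (n = 10) and 2069 ± 826 in Cluster 6 (n = 14), with no step among these beyond the spread. Cluster 17 at 224 ± 170 CPM (n = 4) was apart from both its neighbours, with 144 without cKO replicate 2 at 1 d, and the other 12 clusters lay between 4.89 CPM (Cluster 9) and 23.9 CPM (Cluster 5). Single mice weigh on the low end. Cluster 9 had 2.38 CPM without cKO replicate 2 at 1 d, and Cluster 14 had 0.686 without WT replicate 1 at 7 d. Cluster 10 held 56.2% of Tyrobp UMIs, Cluster 6 held 29.7%, Cluster 12 held 6.32% and Cluster 16 held 4.58%. In all 14 mice Tyrobp was higher in Cluster 10 than in Cluster 6, by a log2 ratio of 0.86 ± 0.47.

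Abca1, the transporter that passes cholesterol to lipid-poor apolipoproteins, was spread over many cell types. Its order ran from Cluster 10 at 390 ± 234 CPM (n = 14) through Cluster 6 at 223 ± 120 (n = 14), astrocyte Cluster 7 at 208 ± 88.4 (n = 15), Cluster 16 at 203 ± 227 (n = 5), astrocyte Cluster 5 at 160 ± 140 (n = 14), Cluster 12 at 148 ± 91.2 (n = 10) and Cluster 13 at 133 ± 82.0 (n = 10). Fibroblasts had 85.0 ± 76.6 CPM (n = 9), Schwann cells 78.8 ± 73.4 (n = 5), precursors 71.7 ± 41.9 (n = 14), endothelial cells 65.7 ± 20.4 (n = 15), Cluster 4 54.2 ± 31.6 (n = 15) and Cluster 2 48.5 ± 60.3 (n = 11). Neurons at 40.4 ± 21.2 CPM (n = 15), pericytes at 28.8 ± 19.6 (n = 15), Cluster 8 at 20.9 ± 17.7 (n = 14) and Cluster 17 at 7.93 ± 15.9 (n = 4) were lowest, and no step between neighbours exceeded the spread. Cluster 16 had 103 CPM and Cluster 2 had 31.5 without the shallow libraries, and Cluster 17 had 0 without cKO replicate 2 at 7 d.

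Abcg1, which hands cholesterol to lipoproteins that already carry lipid, was found in oligodendrocytes as well as in microglia. Over all times it stood at 128 ± 86.3 CPM in Cluster 10 (n = 14), 102 ± 45.9 in oligodendrocyte Cluster 8 (n = 14), 101 ± 34.7 in oligodendrocyte Cluster 4 (n = 15), 70.3 ± 59.2 in Cluster 12 (n = 10), 63.6 ± 42.2 in Cluster 6 (n = 14) and 59.1 ± 30.3 in precursors (n = 14). Neurons had 37.7 ± 15.1 CPM (n = 15). Clusters 16, 15, 13, 14 and 1 had 30.3, 28.1, 25.1, 22.9 and 19.6 CPM, and Clusters 9, 2 and 17 had 11.8, 11.2 and 8.23. The lowest were astrocyte Clusters 5 at 6.21 ± 6.65 (n = 14) and 7 at 1.80 ± 3.70 (n = 15), and no step between neighbours exceeded the spread. In uninjured mice oligodendrocyte Clusters 4 and 8 had means of 96.0 and 84.5 CPM, against 12.1 in Cluster 6 and 0 in Cluster 10, but the mice were uneven: 138, 121, 112 and 12.7 CPM in Cluster 4, 196 (WT replicate 1), 14.3 and 43.2 in Cluster 8, and up to 18.9 in Cluster 6. Clusters 12, 14 and 16 had 43.3, 3.76 and 50.4 CPM without the shallow libraries, and Cluster 15 had 16.01 without cKO replicate 2 at 7 d. Without cKO replicate 2 at 1 d, Cluster 7 had 0.948 CPM and Cluster 16 had 18.9. Astrocytes thus had Abca1 and next to no Abcg1. Of the Abcg1 UMIs, Cluster 10 held 23.5%, Cluster 4 held 18.9%, Cluster 3 held 14.8%, Cluster 8 held 11.3% and Cluster 6 held 10.7%. These shares pool mice of unlike depth and time. In uninjured mice Clusters 6 and 10 together held a mean of 1.68%, against 35.4% in oligodendrocytes.

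**Figure D1:**
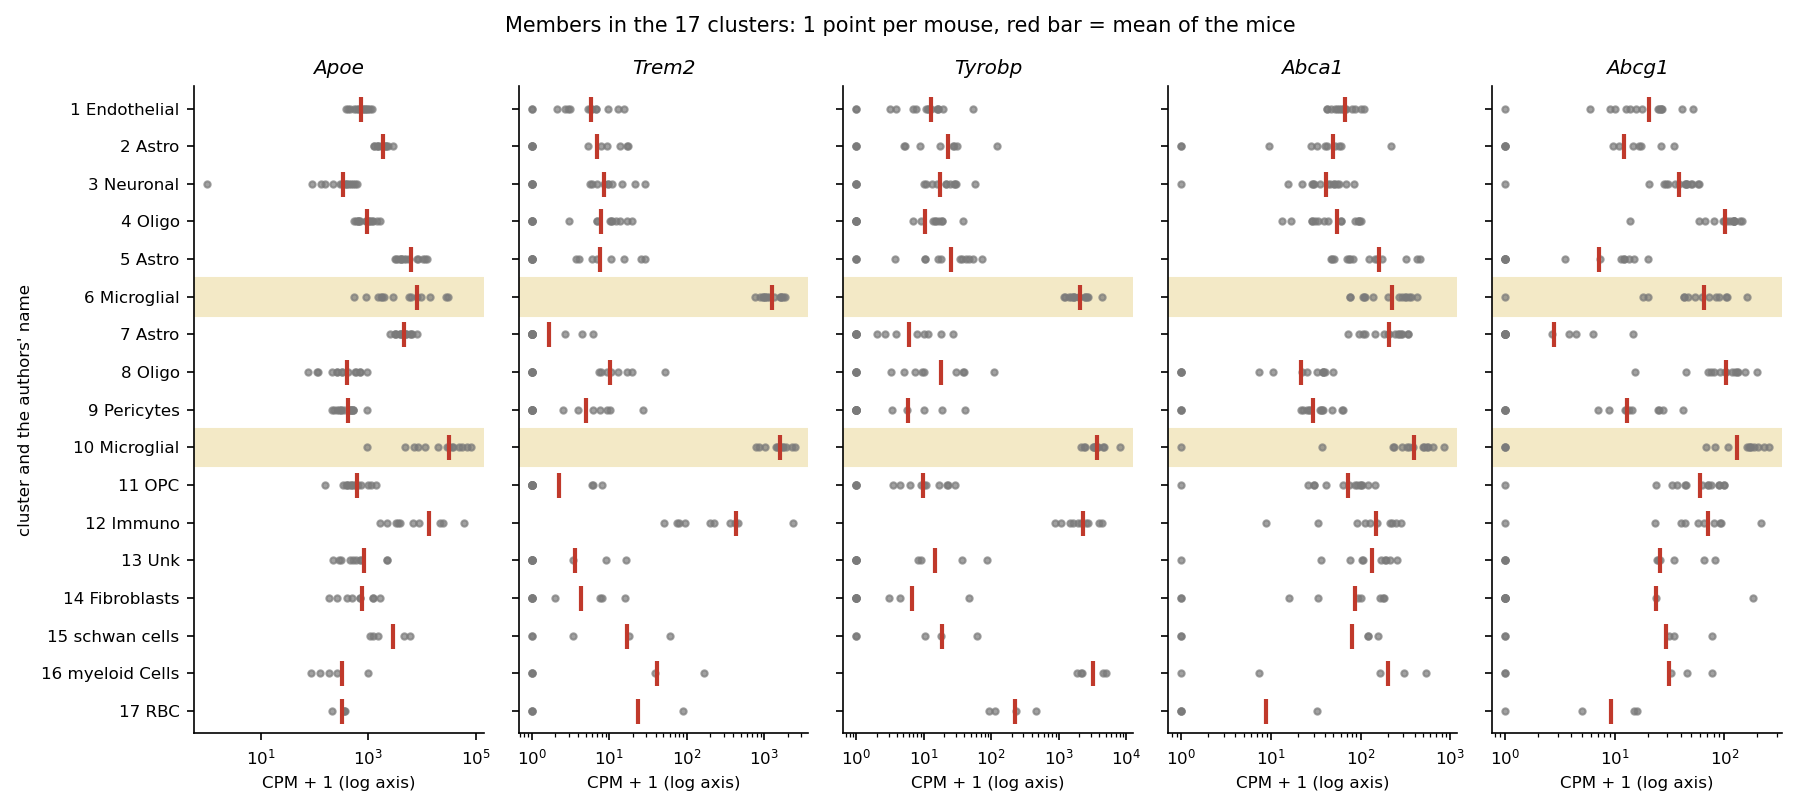
Level of each gene in CPM + 1 on a log axis in the 17 clusters, with a point for each mouse with at least 10 cells and a red bar for the mean. Trem2 has means of 1576 CPM in Cluster 10 and 1263 in Cluster 6, while Abca1 runs from 390 CPM in Cluster 10 to 208 in astrocyte Cluster 7 and 65.7 in endothelial Cluster 1.

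Free RNA puts some UMIs of any abundant gene into cells that do not make it, so shares of cells with a UMI were set beside clusters that lack the gene, also after thinning each cell to 500 UMIs, which keeps 15242 cells. Trem2 had a UMI in 70.3% of Cluster 6 cells and 76.5% of Cluster 10 cells, with median depths of 780.5 and 1119 UMIs, against 1.17% of endothelial cells at 890 UMIs. Thinned, these were 48.6%, 51.4% and 0.507%. Tyrobp had a UMI in 76.1% of Cluster 6, 86.5% of Cluster 10, 85.7% of Cluster 16 and 66.7% of Cluster 12 cells, and in 2.31% of endothelial cells, or 60.1%, 73.9%, 69.9%, 50.2% and 0.761% after thinning. Cluster 17 had Trem2 in 6.72% and Tyrobp in 15.1% of its cells, or 3.67% and 8.26% after thinning, above endothelial cells, at a median depth of 1339 UMIs. The endothelial shares are read here as background.

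Apoe was found far more widely: in 94.9% of Cluster 5, 85.1% of Cluster 7, 80.3% of Cluster 10 and 59.0% of Cluster 6 cells, and in 53.3% of endothelial cells and 53.7% of neurons. At 500 UMIs a cell these were 77.2%, 63.1%, 73.1%, 51.8%, 30.7% and 22.1%, so astrocytes and microglia stood above endothelial cells and neurons at equal depth. For Abca1 the shares were 30.4% in Cluster 6, 36.4% in Cluster 10, 38.8% in Cluster 7 and 12.8% in neurons before thinning, and 13.9%, 14.2%, 10.5% and 2.68% after it. Abcg1 had a UMI in 17.6% of Cluster 4, 15.6% of Cluster 8 and 24.5% of Cluster 10 cells against 0.593% of Cluster 7 cells, the deepest of these at a median of 2882 UMIs, and in 4.51%, 3.51%, 7.82% and 0.252% after thinning.

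A second view of free RNA sets each gene against C1qa, C1qb and C1qc, which microglia make in quantity: RNA that leaked from microglia would keep the ratio found there. Apoe had 0.66 UMIs per C1q UMI in Cluster 6 and 2.98 in Cluster 10, against 46.9 in Cluster 5 and 222 in Cluster 7. Abca1 had 0.0203 and 0.0379 in Clusters 6 and 10 against 12.4 in Cluster 7, and Abcg1 had 0.0051 and 0.0121 against 1.88 in Cluster 4 and 0.952 in Cluster 8. The UMIs of Apoe and Abca1 in astrocytes and of Abcg1 in oligodendrocytes were thus far in excess of that ratio. So were those of most other clusters, with 21.1 for Apoe in endothelial cells and 11.8 in pericytes, and 1.83 for Abca1 in endothelial cells, and the ratio does not set astrocytes apart from these. For Trem2 the ratio outside the myeloid clusters, 0.0427 to 0.207, spans the 0.0861 and 0.116 of Clusters 6 and 10.

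Over the 17 cluster means, the genes with the pattern most like each of the 5 were picked by Pearson's r among 10194 genes reaching 50 CPM in at least 1 cluster. The clusters share libraries and differ in depth, so these are descriptions. Apoe was most like Apoc1 (r = 0.847), an apolipoprotein encoded beside it, then Pld3 (0.807), Psap (0.786), Ctsd (0.783) and Man2b2 (0.779), the last 4 coding for lysosomal proteins. Abca1 was most like Psap (0.853), Man2b2 (0.848), Soat1 (0.832), Sgpl1 (0.794) and Ctsl (0.785), where Soat1 is the enzyme that esterifies cholesterol for storage. Trem2 was most like Hvcn1 (0.982), Ccl12 (0.978), Lat2 (0.975), Fcgr1 (0.974) and P2ry6 (0.971), and Tyrobp most like Fcer1g (0.994), a related adaptor, Cd53 (0.992), Vav1, Ptpn6 and Itgam (0.988 for the last). The nearest to Abcg1 were Kcnk13 (0.857), Rffl (0.841), Slc16a7 (0.808), Rnf130 (0.804) and Lrrc8d (0.799).

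Among the 5 genes themselves, over the same 17 means, Trem2 and Tyrobp were the most alike (r = 0.888), followed by Apoe with Abca1 (0.73) and Apoe with Trem2 (0.695). The least alike were the 2 transporters, Abca1 with Abcg1 (0.165), and Apoe with Abcg1 (0.195).

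The question of injury was asked first in microglia, where the UMIs of Clusters 6 and 10 were summed for each mouse. Of 14 mice, each had 38 to 576 such cells and 72147 to 1615112 UMIs. The mix of both clusters moved with time: Cluster 10 gave 9.98%, 20.5% and 27.1% of these UMIs in the uninjured mice, then 37.9% ± 7.86 at 1 d (SD, n = 3), 37.6% ± 5.08 at 7 d and 54.5% ± 5.06 at 14 d (n = 4 each). Every injured mouse was above every uninjured one in this share. Counted in cells, Cluster 10 made up 14.1%, 41.8% and 42.1% of microglia in the uninjured mice and means of 36.4%, 37.3% and 54.6% at 1, 7 and 14 d, where the times up to 7 d overlapped. The lowest mouse at 14 d, at 44.0%, also lay below the highest at 1 d (55.7%) and at 7 d (47.5%). The part of this mix in the summed levels was not tested, and each cluster is also given by itself. Abca1 and Abcg1 rose after injury. Abca1 stood at 120, 67.6 and 80.6 CPM in the uninjured mice WT 1, WT 2 and cKO 2, and at 180, 164 and 179 CPM at 1 d (WT 1, cKO 1, cKO 2). It reached 337 and 475 CPM in WT and 455 and 486 in cKO at 7 d, and 242 and 456 in WT and 451 and 407 in cKO at 14 d. Every injured mouse was above every uninjured one, and every mouse at 7 and 14 d above every mouse at 1 d, by the labelled conditions.

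Abcg1 was close to absent from uninjured microglia, with 15.5, 15 and 0 CPM in the same mice, from 6 UMIs in all. The 3 mice at 1 d had 55.4, 103 and 55.7 CPM. WT mice had 128 and 119 CPM at 7 d and 106 and 126 at 14 d, and cKO mice 200 and 99.3, then 118 and 148. Here too no injured mouse overlapped the uninjured ones.

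Apoe levels were higher late after injury, with a wider spread. They stood at 1320, 3763 and 6755 CPM in uninjured mice WT 1, WT 2 and cKO 2, and at 2190, 3446 and 1980 CPM at 1 d. At 7 d it was 29279 and 14749 CPM in WT and 46732 and 10615 in cKO, and at 14 d 52960 and 29223 in WT and 25302 and 23490 in cKO. All 8 mice at 7 and 14 d were above all 6 at the earlier times, while uninjured mice and those at 1 d overlapped. With the conditions of the cell names, which leave 2 uninjured mice, 4 of 4, 4 of 5 and 3 of 3 mice at 1, 7 and 14 d were above both of these in Abca1 and the same numbers in Abcg1, as were 1, 5 and 3 in Apoe.

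Trem2 and Tyrobp lay nearer to their uninjured levels at 7 and 14 d. Trem2 was 1619, 1735 and 1438 CPM in uninjured mice, and 1040, 985 and 767 at 1 d. The WT mice then had 1748 and 1200 CPM at 7 d and 1962 and 1292 at 14 d, and the cKO mice 2129 and 1095, then 1302 and 1307. The mice at 1 d were all below the rest, and the other times overlapped. Tyrobp was 1859, 2727 and 2497 CPM in uninjured mice, and 2024, 1908 and 2438 at 1 d. The WT mice had 3424 and 2145 CPM at 7 d and 6144 and 2631 at 14 d, and the cKO mice 3349 and 1862, then 2780 and 2716. Uninjured mice overlapped each later time in Tyrobp, while all mice at 14 d were above all at 1 d, and WT replicate 1 at 14 d stood high.

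**Figure D2:**
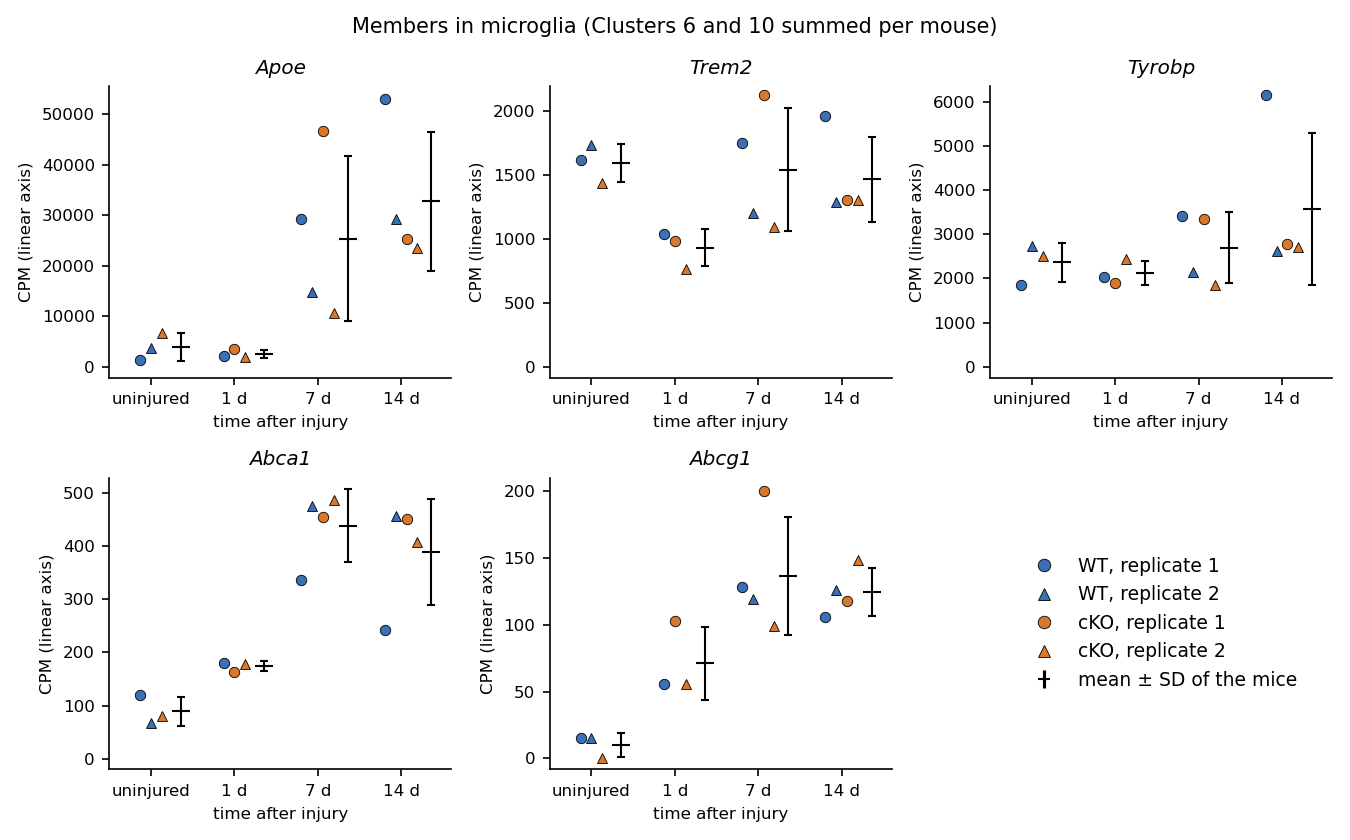
CPM of the 5 genes in microglia (Clusters 6 and 10 summed) by time, with a point for each mouse, the genotypes in separate colours and a bar for the mean with its SD. Abca1 has means of 89.5, 174, 438 and 389 CPM in uninjured mice and at 1, 7 and 14 d, while Trem2 has 1597, 930, 1543 and 1466.

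These differences were tested with edgeR on the summed UMIs of each mouse, over 9268 genes, with calls at an adjusted p under 0.05. All 3 times are set against the same 3 uninjured mice, so the comparisons are not independent of each other. At 7 d, 10 genes were called, or 0.108% of those tested, all higher after injury, and 2 of the 5 genes were among them. Abca1 rose by a log2 fold of 2.27 ± 0.359 (SE, adjusted p = 0.0148 by edgeR), higher in 4 of 4 mice, and Abcg1 by 6.19 ± 0.98 (adjusted p = 0.0148 by edgeR), also in 4 of 4. At 14 d, 32 genes were called (0.345%), 30 up and 2 down, again with 2 of the 5. Abca1 rose by 2.12 ± 0.356 (adjusted p = 0.0133 by edgeR) and Abcg1 by 6.10 ± 0.98 (adjusted p = 0.0130 by edgeR), both in 4 of 4 mice. The fold of Abcg1 depends on the count that the fit adds to a gene near 0: the pooled UMIs give a ratio of 10.2 (95% interval 4.61 to 28.0) at 7 d and 9.97 (4.56 to 27.3) at 14 d, against 6 uninjured UMIs. For Abca1, with 47 uninjured UMIs, the pooled ratios were 4.74 (3.54 to 6.50) and 4.20 (3.14 to 5.73). In Cluster 6 alone 0 of the 5 genes were called.

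The log2 fold of Apoe was 2.59 ± 0.681 at 7 d (adjusted p = 0.210 by edgeR) and 2.96 ± 0.699 at 14 d (adjusted p = 0.0749 by edgeR), higher in 4 of 4 mice at each time and not called. DESeq2 called 37 and 68 genes at these times and 3 of the 5, with Apoe at 2.52 (adjusted p = 0.000283) and 2.88 (adjusted p = 1.93e-05). Over all alternatives the adjusted p of Apoe ran from 3.23e-10 to 0.786 at 7 d and from 1.69e-13 to 0.743 at 14 d. For Trem2 the log2 folds were -0.03 and -0.06, and for Tyrobp 0.15 and 0.58 (adjusted p 1, 0.982, 0.956 and 0.701 by edgeR), and the sign of Trem2 at both times and of Tyrobp at 7 d changed under several alternatives.

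At 1 d, 23 genes were called (0.248%), 18 up and 5 down, and 0 of the 5 were among them by edgeR, with 1279 genes at an unadjusted p under 0.05. DESeq2 called 94 genes and 0 of the 5, with 842 at an unadjusted p under 0.05. The log2 folds at 1 d were -0.93 for Apoe, -0.84 for Trem2, -0.32 for Tyrobp, 0.89 for Abca1 and 5.00 for Abcg1, with adjusted p of 0.544, 0.396, 0.805, 0.355 and 0.139 by edgeR. With the conditions of the cell names Apoe had 0.98, and without the 4 shallow libraries Tyrobp had 0.060.

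All genes together lay slightly above 0: their median log2 fold was 0.172 with edgeR and 0.069 with DESeq2 at 7 d, and 0.184 and 0.080 at 14 d. With the replicate number as a block, 15, 18 and 49 genes were called at 1, 7 and 14 d. Abca1 then had 2.28 and 2.13 and Abcg1 6.13 and 6.06 at 7 and 14 d, still called, and Apoe 2.18 and 2.65 (adjusted p = 0.310 and 0.0771 by edgeR), not called. Within batches 1 and 2, which hold 1 and 2 uninjured mice, the mean log2(CPM + 10) of Abca1 was 1.62 and 2.55 higher at 7 d and 1.39 and 2.39 higher at 14 d. For Abcg1 the same differences were 2.74 and 2.91 at 7 d and 2.25 and 3.21 at 14 d, and for Apoe 4.80 and 1.31 at 7 d and 4.78 and 2.38 at 14 d. At 1 d, Apoe differed by 1.05 in batch 1 and -1.34 in batch 2. Tyrobp also differed in sign between the batches at 7 d, at 0.86 and -0.38, as did Trem2, at 0.25 and -0.46.

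The calls of both transporters rest on few uninjured mice. Without cKO uninjured replicate 2, which leaves no uninjured cKO mouse, so that WT mice alone are compared, Abca1 had 2.01 (adjusted p = 0.0790 by edgeR) and Abcg1 2.91 (adjusted p = 0.0987 by edgeR) at 7 d, and without WT uninjured replicate 1, Abcg1 had 6.18 (adjusted p = 0.0601 by edgeR). At 14 d Abca1 lost its call without WT uninjured replicate 1 (2.33, adjusted p = 0.0558 by edgeR), cKO uninjured replicate 2 (1.89, 0.0599) or cKO replicate 1 at 14 d (2.08, 0.0531), and Abcg1 without WT uninjured replicate 1 (6.09, 0.0561). Apoe gained a call at 7 d without cKO replicate 2 at 7 d (2.97, adjusted p = 0.0412 by edgeR), and at 14 d without either cKO mouse of 7 d or WT replicate 2 of 14 d. Its log2 folds at 14 d were then 2.96, 2.96 and 3.21 (adjusted p = 0.0229, 0.0251 and 0.0378 by edgeR). Over all alternatives the adjusted p of Abca1 ran from 1.91e-05 to 0.622 at 7 d and 3.79e-05 to 0.630 at 14 d, and that of Abcg1 from 1.18e-06 to 0.622 and 7.51e-07 to 0.630. Without the 4 shallow libraries neither transporter was called at 7 d, at 2.35 and 5.97 (adjusted p = 0.0892 and 0.0718 by edgeR), and neither was called at either time once mice took the conditions in their cell names. The number of genes called moved as well: without WT replicate 1 at 1 d it was 0 at 1 d, without WT uninjured replicate 1 it was 0 at 14 d, and without cKO replicate 2 at 7 d it was 36 at 7 d. At 7 d it was 4 without cKO uninjured replicate 2 or WT replicate 1 of that time, and at 14 d it was 20 without cKO uninjured replicate 2, 10 without cKO replicate 1 of that time, 56 without either cKO mouse of 7 d and 52 without WT replicate 1 of 14 d. At 1 d, leaving out 1 mouse moved the 23 by more than 1.5 times in 13 of 14 cases.

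The same 2 clusters taken apart show where the levels lay. In Cluster 6, Apoe had a mean of 1433 CPM in uninjured mice and 1833 at 1 d, then 12910 at 7 d (1539 to 30449) and 12844 at 14 d (6269 to 27362). In Cluster 10 it was 13108 (8326 to 19693) in uninjured mice, 4220 (933 to 7003) at 1 d, 45754 (28800 to 68469) at 7 d and 50142 (35465 to 80285) at 14 d. All mice at 7 and 14 d were thus above all uninjured ones in Cluster 10, while in Cluster 6 the lowest mouse at 7 d lay within the earlier range. Without the shallow libraries Apoe in Cluster 6 was 2908 CPM at 1 d and 3578 at 7 d, and in Cluster 10 it was 933 and 29924. Abca1 ran 98.0, 106, 354 and 275 CPM in Cluster 6 and 90.0, 299, 596 and 478 in Cluster 10 over the 4 times. The uninjured level in Cluster 10 rests on 7 UMIs. Its highest uninjured mouse had 233 CPM, above the lowest injured cKO mouse at 227.

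Abcg1 ran 12.1, 49.6, 98.2 and 78.1 CPM in Cluster 6. In Cluster 10 it had 0 of 76595 UMIs in uninjured mice, which allows up to 39.2 CPM (3 counts over the group), and then means of 112, 205 and 160 CPM over mice. The UMIs pooled over mice gave 83.8, 210 and 166 CPM at these times, at least 2.14, 5.37 and 4.24 times that limit. Trem2 ran 1566, 951, 1350 and 1182 CPM in Cluster 6 and 1700, 888, 1865 and 1711 in Cluster 10. Tyrobp ran 2102, 2025, 1902 and 2244 CPM in Cluster 6 and 3460, 2317, 4009 and 4719 in Cluster 10. Without the shallow libraries Abcg1 was 65.1 CPM in Cluster 6 at 7 d and 67.0 in Cluster 10 at 1 d, and Tyrobp was 1231 in Cluster 6 at 7 d.

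In Cluster 6 by itself, edgeR tested 7394 genes and called 3 at 1 d (0.0406%) and 0 at 7 d, at 14 d and between genotypes (0% each), and 0 of the 5. The unadjusted p was under 0.05 for 897, 548, 543 and 264 genes, and by DESeq2 the calls numbered 11, 4, 0 and 0. Apoe had log2 folds of 3.07 ± 0.912 at 7 d and 3.00 at 14 d (adjusted p = 0.589 and 0.610 by edgeR), Abca1 1.76 and 1.39 (0.263 and 0.610), and Abcg1 5.08 and 4.80 (0.505 and 0.610). The fold of Apoe at 7 d was 0.89 without the shallow libraries and 1.27 without cKO replicate 1 of that time alone. Over all alternatives it ran from 1.98 to 4.02 at 14 d, while Abca1 ran from 1.51 to 4.58 and 1.27 to 4.17 and Abcg1 from 1.86 to 7.87 and 2.17 to 7.30 at 7 and 14 d. Cluster 10, with 13 to 28 cells per uninjured mouse, was not fitted separately.

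Single cells show how Apoe was shared out among microglia. In uninjured mice and at 1 d the median cell of either cluster had 0 to 1202 CPM, and the 10% of cells with the most Apoe UMIs held 65.6% to 95.2% of them. In Cluster 10 at 7 d the median cell had 54214 CPM in WT replicate 1, 4161 in WT replicate 2, 71186 in cKO replicate 1 and 1354 in cKO replicate 2. The high medians are those of the shallow libraries. At 14 d, with no shallow library, the medians of Cluster 10 were 60356 and 17623 CPM in WT and 20487 and 7361 in cKO. In Cluster 6 the medians were 0 and 504.5 CPM in WT and 12184 and 117 in cKO at 7 d, and 6775 and 633 in WT and 668 and 367 in cKO at 14 d. The medians of Cluster 6 at the earlier times were 0 to 356 CPM, a range that holds 2 of these 8, and the 10% of cells with the most Apoe UMIs held 42.7% to 78.6% of them. Thinned to 500 UMIs and pooled over mice, 40.4%, 29.0%, 87.6% and 81.4% of Cluster 10 cells had an Apoe UMI over the 4 times. In Cluster 6 the shares were 24.0%, 16.8%, 73.8% and 53.0%, where cKO replicate 1 at 7 d gave 401 of the 665 cells of its time before thinning. In Cluster 10 at 7 d the shallow WT replicate 1 and cKO replicate 1 gave 66 and 175 cells before thinning. WT replicate 2 and cKO replicate 2 gave 48 and 36. Before thinning, 7.58% and 3.43% of cells in the shallow mice had no Apoe UMI, against 25% in each of the others. For Abca1 in Cluster 6 the pooled thinned shares were 3.43%, 20.7% and 14.7% in uninjured mice and at 7 and 14 d.

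Markers of monocytes and macrophages were higher at the same times. Their sum over 8 genes in microglia was 450 ± 216 CPM in uninjured mice (n = 3), 642 ± 386 at 1 d (n = 3), 2887 ± 1343 at 7 d and 2329 ± 678 at 14 d (n = 4 each). In single mice it was 307, 699 and 345 CPM uninjured, and 1026, 646 and 254 at 1 d. It was 3978 and 3135 in WT and 3497 and 940 in cKO mice at 7 d, then 3075 and 1439 in WT and 2296 and 2503 in cKO mice at 14 d. Lyz2 was the most abundant of them in each mouse, 1 to 7 of the 8 had a UMI, and Ly6c2 was at 0. In Cluster 10 the sum was 1197, 1296, 6176 and 3693 CPM over the 4 times, and in Cluster 6 it was 252, 302, 833 and 738. Their part in the results for Apoe, Abca1 and Abcg1 was not tested.

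Where the Apoe RNA of the tissue lay shifted from astrocytes to microglia. Microglia held 7.31% and 11.2% of a mouse's Apoe UMIs in uninjured WT mice and 24.6% and 13.9% in uninjured cKO mice. The 24.6% is that of cKO replicate 1, with 6 microglia, where 221 of 899 Apoe UMIs were microglial and 219 of these lay in 1 cell. At 1 d they held 20.4% in WT and 35.7% and 13.4% in cKO, at 7 d 77.0% and 81.4% in WT and 86.0% and 47.0% in cKO, and at 14 d 86.6% and 84.2% in WT and 85.5% and 78.6% in cKO. Every mouse at 7 and 14 d was above all earlier ones, and the mice at 1 d overlapped the uninjured ones.

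Over all injured mice the mean was 63.2% ± 28.5 (SD, n = 11) against 14.3% ± 7.40 (SD, n = 4), a difference of 49.0 percentage points (exact permutation test, two-sided, p = 0.00440, 1365 arrangements, smallest possible p 0.000733). Leaving out each mouse in turn gave differences of 46.7 to 54.0 and exact p of 0.00200 to 0.0210, with 52.4 points (exact permutation p = 0.00549) without the uninjured mouse with 6 microglia. Within batch 1 the difference was 49.2 points (exact permutation p = 0.0714, where the smallest possible is 0.0357), and within batch 2 it was 48.4 (exact permutation p = 0.143, smallest possible 0.0476). Astrocytes held 53.6%, 38.0%, 12.1% and 7.83% of Apoe UMIs at the 4 times, and microglia 14.3%, 23.1%, 72.9% and 83.7%. The astrocyte share includes Cluster 2, which also held oligodendrocyte markers, and no share without it is given. In the 1 mouse at 1 d that is not shallow the microglial share was 13.4%, below the uninjured mean. It lay above the uninjured mean of 10.8% without the mouse with 6 microglia. The share of all UMIs, of any gene, that came from microglia also moved, from 5.39% to 12.4%, 20.4% and 19.9%, so these shares combine how many microglia were captured with how much Apoe each held.

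**Figure D3:**
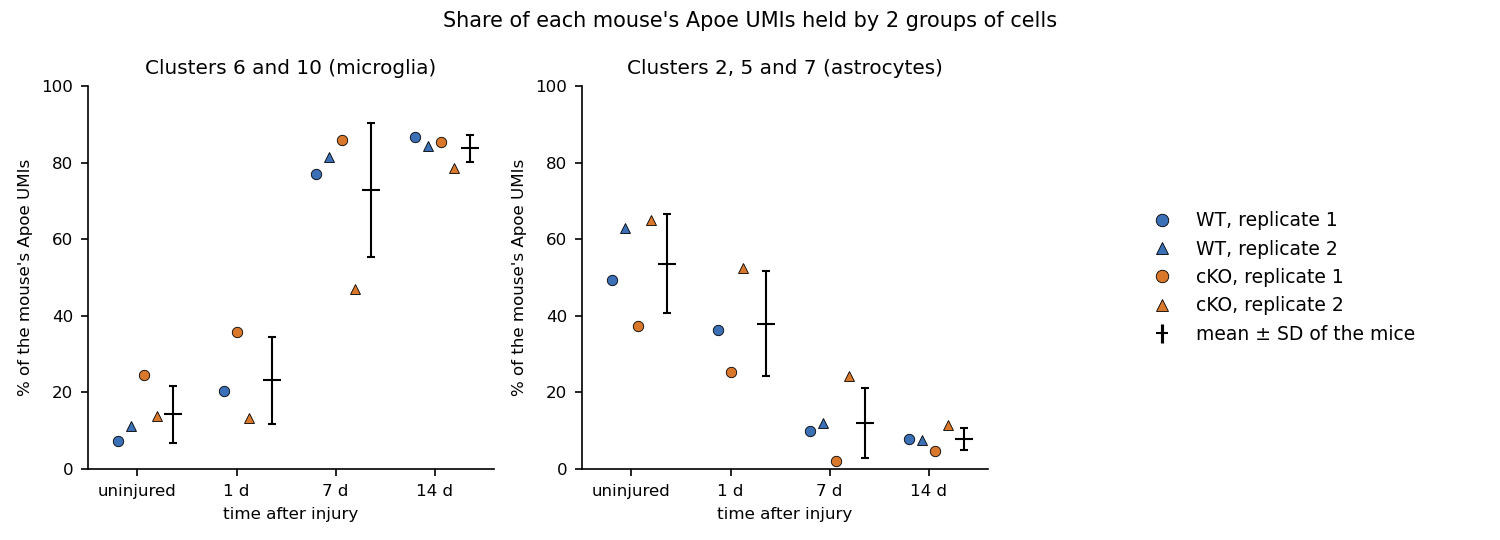
Percent of each mouse's Apoe UMIs that lay in microglia (Clusters 6 and 10) and in astrocytes (Clusters 2, 5 and 7) by time, with a point for each of 15 mice and a bar for the mean with its SD. In microglia the 8 mice at 7 and 14 d lie between 47.0% and 86.6% and the 4 uninjured mice between 7.31% and 24.6%, the highest from 6 microglia, while the astrocyte means go from 53.6% to 7.83%.

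The other genes were shared out differently. Microglia held 94.8%, 85.5%, 95.3% and 96.2% of Trem2 UMIs at the 4 times. For Tyrobp they held 82.6%, 62.3%, 83.7% and 93.9%, and the immune and myeloid clusters had their highest mean, 33.2%, at 1 d. Single mice at other times lay above every mouse at 1 d, with 41.85% in cKO replicate 2 at 7 d and 36.48% in WT uninjured replicate 2. The microglial share of Abca1 went from 9.66% through 26.4% to 52.8% and 50.3%, while astrocytes went from 32.9% to 17.8% and endothelial cells from 29.9% to 8.15%. The microglial share of Abcg1 went from 1.68% through 18.7% to 43.1% and 42.7%, beside 35.4%, 34.6%, 24.3% and 27.9% in oligodendrocytes.

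Astrocytes did not show the course of microglia for Apoe. Cluster 5 had means of 6605 ± 4913, 5782 ± 2638, 7460 ± 4144 and 5184 ± 1841 CPM over the 4 times, and Cluster 7 had 5429 ± 1277, 4400 ± 500, 4083 ± 1555 and 4547 ± 2295, with the times overlapping in both. Cluster 5 had 3146 CPM at 1 d and 3915 at 7 d without the shallow libraries. Abca1 in Cluster 7 was 205 and 94.2 CPM in uninjured WT mice and 104 and 144 in uninjured cKO mice. At 1 d it was 258 in WT and 72.1 and 110 in cKO, which overlaps the uninjured mice. At 7 d it was 239 and 267 in WT and 336 and 184 in cKO, and at 14 d 282 and 202 in WT and 290 and 340 in cKO. WT uninjured replicate 1 reaches into the injured range, and the other 3 uninjured mice lie below all mice at 7 and 14 d.

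In Cluster 7 edgeR tested 7966 genes, Apoe and Abca1 among them, and called 15 at 1 d (0.188%), 3 at 7 d (0.0377%), 15 at 14 d (0.188%) and 1 between genotypes (0.0126%), with 0 of the 2 each time. The unadjusted p was under 0.05 for 519, 592, 616 and 394 genes, and by DESeq2 the calls numbered 6, 2, 0 and 0. Abca1 had log2 folds of 0.64 ± 0.30 at 7 d (adjusted p = 0.619 by edgeR) and 0.96 ± 0.279 at 14 d (adjusted p = 0.198 by edgeR). Without WT uninjured replicate 1 it had 1.29 at 14 d (adjusted p = 0.0340 by edgeR), the 1 alternative of 26 in which it was called, where adjusted p ran from 0.0340 to 1. Within batches 1 and 2 the differences were 0.91 and 0.87 at 7 d and 0.92 and 1.10 at 14 d. With the replicate block 27, 30, 31 and 5 genes were called.

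In Cluster 5, 7929 genes were tested, with Apoe, Tyrobp and Abca1 among them, and edgeR called 2 at 1 d (0.0252%) and 0 at 7 d, at 14 d and between genotypes (0% each), and 0 of the 3. The unadjusted p was under 0.05 for 467, 179, 167 and 168 genes, by DESeq2 the calls numbered 3, 0, 1 and 0, and the replicate block gave 9, 0, 5 and 0. Abca1 there was 140, 87.4, 260 and 129 CPM over the 4 times. It was 45.7 CPM at 1 d and 78.6 at 7 d without the shallow libraries, and the uninjured mean holds 324 CPM in WT replicate 1 beside 49.9 and 46.8 in the other mice.

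Endothelial cells, the most numerous, had Apoe at 854, 615, 708 and 744 CPM, Abca1 at 67.7, 69.9, 63.3 and 63.1 and Abcg1 at 17.1, 32.9, 15.5 and 16.2. In the 1 mouse at 1 d that is not shallow, Apoe was 963 CPM and Abcg1 8.00, below its uninjured mean. Of 10985 genes tested there, 4 of the 5 among them and not Trem2, edgeR called 1 at 1 d (0.0091%) and 0 in the other comparisons (0% each), and 0 of the 4. The unadjusted p was under 0.05 for 572, 982, 833 and 311 genes, and by DESeq2 the calls numbered 3, 0, 1 and 0. In oligodendrocyte Cluster 4, not tested, Abca1 was 27.8 ± 11, 28.6 ± 13.3, 71.0 ± 32.5 and 83.2 ± 16.8 CPM over the 4 times, and Abcg1 was 96.0, 78.3, 107 and 117.

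The effect of astrocyte Ryk deletion on microglia was compared over the injured mice, WT (n = 5) against cKO (n = 6). Apoe was 25680 ± 18980 CPM in WT and 18594 ± 16911 in cKO, Trem2 1448 ± 389 and 1264 ± 470, and Tyrobp 3274 ± 1696 and 2509 ± 567. Abca1 was 338 ± 129 and 357 ± 146 CPM and Abcg1 107 ± 30.0 and 121 ± 49.3. The genotypes overlapped for all 5. These means and ranges pool all times after injury, over which levels changed. WT had fewer mice than cKO at the earliest of these times, when Apoe, Trem2 and Abca1 were lowest among injured mice. The pooled overlap therefore cannot show whether the genotypes differed at a given time.

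Taking cKO minus WT with time in the fit, edgeR called 0 genes (0%) and 0 of the 5, with 346 at an unadjusted p under 0.05, while 0 were called by DESeq2, with 82. This contrast takes all times after injury together, so genotype differences of opposite sign at different times can cancel. Mean Apoe in cKO mice lay above that in WT, with overlap, at the middle time, and below it at the last. Genotype was not tested at each time by itself. The log2 differences were -0.04 ± 0.471 (SE) for Apoe, -0.16 ± 0.300 for Trem2, -0.24 ± 0.348 for Tyrobp, 0.16 ± 0.245 for Abca1 and 0.29 ± 0.330 for Abcg1 (adjusted p = 1.00 for each by edgeR). Apoe had 0.068 with the replicate block and Abcg1 had -0.15 without the shallow libraries. For the difference of the injury effect between genotypes, edgeR called 0 genes (0%) and 0 of the 5, with 493 at an unadjusted p under 0.05, while 0 were called by DESeq2, with 165. A single uninjured cKO mouse stands behind that comparison in microglia.

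Other genes of the pathway were followed in microglia as 7 lists. Each list is described by the genes tested, the number called and the median log2 fold, beside the median of all 9268 genes of 0.02 at 1 d, 0.17 at 7 d and 0.18 at 14 d. All genes were called at 0.248%, 0.108% and 0.345% over these times, and 1279, 784 and 982 of the 9268 had an unadjusted edgeR p under 0.05. Where a gene was at 0 in the uninjured mice of either genotype, of which cKO has 1, its fitted fold has no bound. Each median is therefore also given with the ratio of pooled UMIs for such genes, where counts under 3 over a group are raised to 3 as a floor, a scale on which all genes had -0.06, 0.05 and 0.06.

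Of 8 apolipoprotein genes other than Apoe, 4 were tested and 0 called by edgeR at any time, with 0, 1 and 2 at an unadjusted p under 0.05 over the 3 times. By DESeq2 the calls numbered 0, 1 and 1, and with the replicate block 0, 0 and 2. Their medians were 2.66, 4.57 and 4.44 over the 3 times, or 0.91, 1.81 and 2.53 with the floor. Apoc1, an apolipoprotein that modulates lipid transfer, was 7.72, 13.5, 286 and 344 CPM in uninjured mice and at 1, 7 and 14 d, and Apoc4, its neighbour in the same gene cluster, was 0, 0.807, 34.9 and 107. Clu, a secreted chaperone that also carries lipids, was 5.01, 41.3, 20.8 and 16.4 CPM, and Apod was 16.6, 43.9, 35.9 and 12.3. Of the 4, 3 had no UMI in 1 genotype or both when uninjured. Without the shallow libraries Apoc4 was 7.67 CPM and Apod 21.7 at 7 d, and at 1 d Apoc1 and Apoc4 were 2.42 each, Clu 89.6 and Apod 87.1.

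Of 9 lipoprotein receptor and uptake genes, 6 were tested, with medians of 2.30, 2.16 and 2.09, or 1.70, 0.93 and 0.96 with the floor. At 1 d 3 were called, all up: Lpl, the lipase that frees fatty acids from lipoproteins, with a log2 fold of 4.19 (adjusted p = 0.00511 by edgeR), the scavenger receptor Msr1 (adjusted p = 0.00544 by edgeR) and the fatty acid transporter Cd36 (adjusted p = 0.0431 by edgeR). Lpl alone was called at 7 d (3.52, adjusted p = 0.0160 by edgeR) and at 14 d (3.78, adjusted p = 0.0114 by edgeR). Over all alternatives the log2 fold of Lpl ran from 1.36 to 8.08 at 1 d. It ran from 1.35 to 7.69 at 7 d and from 2.04 to 7.86 at 14 d. Its levels were 76.6, 792, 484 and 626 CPM, with every injured mouse above every uninjured one. Msr1 went from 0 to 242 CPM at 1 d, then stood at 27.9 and 44.0, and Cd36 from 1.29 CPM, from 1 UMI, to 67.0, then 15.9 and 17.1, both higher in 3 of 3 mice at 1 d. In the 1 mouse at 1 d that is not shallow Lpl was 499 CPM and Cd36 38.7, and at 7 d Msr1 was 16.6 without the shallow libraries. By DESeq2 the calls of this list numbered 2, 1 and 2 at 1, 7 and 14 d, and with the replicate block 2, 1 and 1.

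Among 11 genes of LXR and RXR and their targets, 9 were tested and 0 called by edgeR or DESeq2, with 0, 1 and 1 at an unadjusted edgeR p under 0.05 and medians of -0.46, 0.38 and 0.41. Mylip, an LXR target that promotes breakdown of the LDL receptor, was 162, 169, 275 and 284 CPM. The transporter gene Abca7 was 5.18, 24.2, 17.6 and 14.7 CPM and the receptor gene Rxra 20.4, 12.5, 19.2 and 34.7. Among 13 genes of cholesterol export, lysosomal release and storage, 10 were tested and 0 called by edgeR, with 5 at an unadjusted p under 0.05 at each time and medians of 0.03, 0.84 and 0.84. By DESeq2 1, 1 and 3 were called, and with the replicate block 0, 0 and 3. Lipa, the lysosomal lipase that frees cholesterol from its esters, was 38.3, 101, 156 and 155 CPM, and Soat1 was 67.9, 132, 163 and 217. Ch25h, which makes an oxysterol, was 0, 78.0, 81.2 and 102 CPM, with 172 at 1 d in the 1 mouse that is not shallow, and the transporter gene Abca9 was 314, 105, 284 and 225.

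Of 19 genes of cholesterol synthesis, 12 were tested and 0 called by edgeR or DESeq2, with 1, 0 and 0 at an unadjusted edgeR p under 0.05. Their medians were 1.13, 1.32 and 1.40, but 0.51, -0.27 and -0.14 with the floor, so the direction depends on how genes near 0 are treated. Hmgcs1, an early enzyme of the pathway, was 25.5, 28.6, 31.8 and 25.9 CPM, Fdps 10.1, 37.0, 10.5 and 6.70, and Cyp51 11.4, 29.6, 15.7 and 20.3. At 1 d Hmgcs1 was 58.1 CPM and Cyp51 50.8 without the shallow libraries, and Cyp51 was 25.2 at 7 d.

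Of 18 genes of Trem2 and Tyrobp signalling, 17 were tested, with medians of -0.11, 0.25 and 0.18, close to those of all genes. The lectin receptor Clec7a was called at 14 d with a log2 fold of 2.48 (adjusted p = 0.0133 by edgeR), at 82.5, 231, 350 and 465 CPM, and was higher in 4 of 4 mice. Syk, the kinase that TYROBP recruits, was 77.8, 95.1, 116 and 112 CPM, and Inpp5d, a phosphatase that opposes such signals, was 988, 639, 826 and 658.

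All 15 genes of the damage-associated microglia list were tested, with medians of 1.48, 2.57 and 2.65, or 0.60, 2.41 and 2.65 with the floor. The numbers called were 2, 4 and 6, all up, or 13.3%, 26.7% and 40.0% of the list beside 0.248%, 0.108% and 0.345% of all genes, against 4, 9 and 9 by DESeq2 and 3, 6 and 7 with the replicate block. Lpl and Spp1 were called at 1 d, joined by Gpnmb and Cst7 at 7 d and also by Fabp5 and Lgals3 at 14 d. Spp1, the secreted osteopontin, was 39.7, 3259, 2645 and 1631 CPM, with log2 folds of 7.48, 7.24 and 6.51. Over all alternatives these folds ran from 4.34 to 11.4, from 4.41 to 11.2 and from 4.01 to 10.9. Uninjured mice had 11 Spp1 UMIs in Cluster 10 and 0 in Cluster 6. Cst7, a cystatin that inhibits lysosomal proteases, was 6.34, 20.1, 163 and 229 CPM. Gpnmb was 0, 23.9, 528 and 306 CPM, the lipid chaperone Fabp5 35.5, 174, 540 and 488, and the galectin Lgals3 17.9, 285, 238 and 327. Without the shallow libraries Spp1 was 863 CPM, Gpnmb 264, Cst7 107 and Lgals3 104 at 7 d, and at 1 d Gpnmb was 2.42, Fabp5 58.1 and Lgals3 140. These calls are made on Clusters 6 and 10 summed, whose mix moved with time, and the part of the mix in them was not tested. In Cluster 6 alone 14 of the list were tested and 0 called at each time. Taken apart, Gpnmb ran 0, 1.52, 8.58 and 0.909 CPM in Cluster 6 and 0, 67.9, 1354 and 540 in Cluster 10 over the 4 times, Cst7 8.41, 17.8, 57.6 and 57.2 against 0, 26.0, 336 and 368, and Lpl 9.45, 304, 100 and 60.0 against 255, 1681, 1112 and 1068. Spp1 went 0, 667, 206 and 48.2 CPM in Cluster 6 and 154, 7826, 6424 and 2891 in Cluster 10, Fabp5 23.9, 38.3, 55.1 and 47.4 against 66.8, 433, 1320 and 876, and Lgals3 0, 23.3, 24.3 and 10.6 against 68.8, 766, 581 and 604. Between genotypes edgeR called 0 genes of all 7 lists, where the unadjusted p was under 0.05 for 346 of all genes, and DESeq2 called 0. Of the list genes at the 3 times, Lpl was called in 22, 20 and 22 of 25 alternatives, Spp1 in 21, 23 and 22 of 25, Gpnmb in 21 and 21 of 25 at 7 and 14 d, Cst7 in 16 and 22, Lgals3 at 14 d in 19, Fabp5 at 14 d in 20, Clec7a at 14 d in 21, Msr1 at 1 d in 20, and Cd36 at 1 d in 7 of 23. Without WT uninjured replicate 1 the damage-associated list had 2 calls at 7 d and 0 at 14 d, and without WT replicate 1 at 1 d it had 0 at 1 d, with Msr1 and Cd36 not called either. Lpl had no call at 7 d without WT replicate 1 of 7 d, nor at 7 or 14 d without WT uninjured replicate 1, and Clec7a had none at 14 d without that uninjured mouse or without cKO replicate 1 of 14 d.

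Since Abca1 was called at both late times and its control by LXR is textbook knowledge, the 250 bases before its start were read for motifs, beside those of Apoe, whose level was higher in every mouse at those times. Promoter sequences are from RefSeq on GRCm38.p6, given 5′ to 3′ on the strand of the gene, and 3 of the 5 genes matched an entry. On both strands of 32851 promoters the search covered the DR4 element, to which LXR with RXR binds, the same element with both half-sites in their exact form, and the E-box CACGTG. The DR4 element occurred in 684 promoters (2.08%), its exact form in 5 (0.0152%) and CACGTG in 1978 (6.02%). Capitals mark the matches in Abca1, chr4:53159896-53160145 on the minus strand: CACGTG and, further on, the DR4 element, which reads in the other direction. The Apoe stretch, chr7:19699189-19699438 on the minus strand, is the first of 3 entries for that gene, had no match and is shown for comparison.
Abca1: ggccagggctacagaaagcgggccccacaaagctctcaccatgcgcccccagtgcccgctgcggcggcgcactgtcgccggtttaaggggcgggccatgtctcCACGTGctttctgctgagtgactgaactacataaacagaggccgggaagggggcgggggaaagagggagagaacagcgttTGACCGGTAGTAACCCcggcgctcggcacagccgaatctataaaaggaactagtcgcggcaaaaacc
Apoe: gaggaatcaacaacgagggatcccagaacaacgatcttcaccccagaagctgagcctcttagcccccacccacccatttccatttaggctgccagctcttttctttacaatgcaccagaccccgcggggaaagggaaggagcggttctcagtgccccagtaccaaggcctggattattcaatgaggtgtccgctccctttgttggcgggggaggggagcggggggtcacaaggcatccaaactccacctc
In Abca1 the DR4 element lay at bases 67 to 52 before the start (chr4:53159947-53159962) and CACGTG at bases 147 to 142 (chr4:53160037-53160042). A match is a description of these letters, and binding was not measured.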

How the data were processed

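The deposited table holds raw UMI counts for each gene and cell, made by the authors with Cell Ranger on mm10 (GRCm38) and filtered and clustered in Seurat under R 4.1.2. No doublet caller was run here, and one used by the authors is not given in the sources used here. Cells were grouped by animal number, genotype and time as in the labels. UMIs were summed per mouse and cell class with at least 10 cells, in microglia (Clusters 6 and 10), Cluster 6, Cluster 5, Cluster 7 and endothelial cells. Each class was fitted over all genes with edgeR 4.0.16 (TMM scaling, filterByExpr, quasi-likelihood test, Benjamini-Hochberg adjustment, threshold 0.05) in R 4.3.3, and the procedure was tested on simulated data. Tests for single values were exact permutation tests run with scipy 1.17.1, beside numpy 2.4.6, pandas 2.3.3 and matplotlib 3.10.9 in Python 3.11.15. Intervals are 95% exact Clopper-Pearson intervals of pooled UMIs or cells and cover counting error only.

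The 5 genes and the 7 gene lists were chosen with earlier results of these data known. Named besides the 5 were the list genes past the threshold at each time and, where a list had fewer than 2 of these, its 2 genes with the smallest p. Between genotypes the lists are given as counts. Genes like each of the 5 were the 5 with the highest Pearson r of log2(mean CPM + 10).

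The alternatives were DESeq2 1.42.0, no filter on low counts, a term for the animal number series, a block for the replicate number, no shallow libraries, cells thinned to 500 UMIs, at least 30 cells, the conditions of the cell names, and each mouse left out. Leaving out cells with a shared barcode, contrasts of 1 genotype alone, levels without the shallow libraries, without each mouse or with the conditions of the cell names, the Apoe share under the first and last of these, Ryk without Cluster 2, and Tyrobp between genotypes without WT replicate 1 at 14 d were chosen after seeing the data. WT replicate 2 at 1 d was left out for having fewer than 50 cells.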

Additional observations from a re-analysis of the deposited data

Results flagged for a closer look

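WT replicate 1 at 14 d stood apart from the other 3 mice of its time in 7 values, its gap to the next mouse taking up most of the range of the 4. In microglia it had 1962 CPM of Trem2, where the next mouse had 1307, and 6144 CPM of Tyrobp, where the next had 2780. In Cluster 10 it had 2297 CPM of Trem2 (next 1579) and 8029 CPM of Tyrobp (next 3695), and in Cluster 6 it had 4378 CPM of Tyrobp (next 1650) and 27362 CPM of Apoe (next 9671). Its Apoe in Cluster 7 was 7955 CPM (next 3867). In all, 68 groups of 4 mice were looked at and 13 had such a mouse, while chance flags about 1 in 20 groups. In groups with only a few UMIs, as in the next paragraph, 1 UMI can make the gap, and that rate does not apply. The values of 1 mouse in different classes come from 1 library.

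The other 6 such values rest on 1 to 3 UMIs in a group of 4 mice. Abcg1 in Cluster 5 at 7 d was 19.1 CPM in WT replicate 2, from 2 of 3 UMIs, and in Cluster 7 it was 3.43 CPM in that mouse, from 1 UMI. Abcg1 in Cluster 7 of uninjured cKO replicate 2 was 5.34 CPM, also from 1 UMI. Trem2 in Cluster 5 at 7 d was 5.06 CPM in cKO replicate 2, from 2 UMIs. Tyrobp in Cluster 7 was 26.5 CPM in WT replicate 1 at 7 d, from 1 of 2 UMIs, and 10.7 CPM in uninjured cKO replicate 2, from 2 UMIs.

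Among 60 pairs compared between genotypes, 2 had all WT mice on one side of their uninjured mean and all cKO mice on the other. Tyrobp in Cluster 10 at 14 d was 0.72 above the uninjured mean in WT and -0.08 from it in cKO on the log2(CPM + 10) scale, a difference of -0.80. It rests on WT replicate 1 at 14 d: the other WT mouse had 3695 CPM, where the uninjured WT mice had 3346 and 3257, the cKO mice at 14 d had 3584 and 3567, and the only uninjured cKO mouse had 3777, so that without this mouse the values were 0.16 and -0.08 and the difference -0.24. Tyrobp in Cluster 7 at 14 d was 0.84 above in WT and -0.23 from it in cKO, a difference of -1.07 from few UMIs, or -0.99 without that mouse. Neither difference was tested.

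The 6 cells of uninjured cKO replicate 1 in Cluster 6, too few for the comparisons, had 11514 CPM of Apoe from 221 UMIs, 219 of them in 1 cell, where the other uninjured mice had up to 1942. They had 4533 CPM of Tyrobp from 87 UMIs (others up to 2590) and 208 CPM of Abca1 from 4 UMIs (others up to 111).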

How the results depend on the processing

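The values below are log2 folds in microglia unless another class is named, with adjusted p by edgeR in brackets, and the cause of a change was not tested. In all classes together, 2282 folds of the 5 genes were computed under alternatives: 2043 kept their direction and their side of the threshold, 201 changed sign, 0 of these with a call, 14 gained a call and 24 lost one. Of the levels under another setting, those of Ryk in astrocytes included, 358 moved by less than the SD over mice and 49 by more. Leaving out 1 mouse cannot move a mean by more than that SD. The 1900 levels with 1 mouse left out all stayed within it for that reason, which does not show that they are stable. Tyrobp in Cluster 14 went from 5.75 to 0.686 CPM without WT replicate 1 at 7 d. Apoe in Cluster 10 moved less, from 31112 to 27330 CPM without WT replicate 1 at 14 d.

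With DESeq2, Apoe was called at 7 d (2.52) and 14 d (2.88), 3 of the 5 genes at each. The genes called were 94, 37 and 68 at 1, 7 and 14 d. Without a filter on low counts Apoe was called at 7 d (2.69, 3.23e-10) and 14 d (3.16, 1.69e-13), again 3 of the 5, Trem2 was 0.061 at 7 d and 0.12 at 14 d, and 153, 108 and 191 genes were called, with 8 between genotypes and 8 for the difference of injury effects. In Cluster 6 that setting called 3 of the 5 at 7 d (Apoe 3.11, 4.41e-10, Abca1 1.82, 0.0259, Abcg1 5.09, 0.0123) and 1 at 14 d (Apoe 3.15, 2.40e-10). The share of all Cluster 6 genes called under that setting is not given here. Over all alternatives up to 36 genes were called there at 7 d and up to 20 at 14 d.

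With the replicate block Tyrobp was -0.026 at 7 d, Apoe was 0.068 between genotypes, and 15, 18 and 49 genes were called. The block changed no call of the 5 genes. With the animal number series as a term, Apoe was called at 14 d (3.03, 0.0361), making 3 of the 5, Trem2 was 0.033 at 14 d, Apoe 0.022 between genotypes, and 15, 16 and 109 genes were called.

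Without the 4 shallow libraries Abca1 had 2.35 (0.0892) and Abcg1 5.97 (0.0718) at 7 d, so 0 of the 5 were called there. Tyrobp was 0.060 at 1 d and -0.36 at 7 d, Abcg1 -0.15 between genotypes, and the genes called numbered 2 at 1 d, 2 at 7 d and 2 between genotypes. With cells thinned to 500 UMIs, 0 of the 5 were called: Abca1 had 5.18 (0.101) and 4.72 (0.178) and Abcg1 4.29 (0.371) and 3.80 (0.542) at 7 and 14 d, Trem2 was 0.072 at 7 d, and 7, 1 and 0 genes were called. Without cells of a shared barcode Apoe was 0.014 between genotypes and 42 genes were called at 1 d. With the conditions of the cell names, 0 of the 5 were called: Abca1 had 1.74 (0.558) and 1.96 (0.151) and Abcg1 2.70 (0.594) and 2.97 (0.151). Apoe was then 0.98 at 1 d, Trem2 0.020 at 14 d, and 3, 2 and 21 genes were called, with 1 for the difference of injury effects.

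In WT mice alone Abca1 had 2.01 (0.0782) and 1.90 (0.0573) and Abcg1 2.92 (0.0941) at 7 d, so 0 and 1 of the 5 were called, Trem2 was 0.094 at 14 d, and 11, 4 and 20 genes were called. In cKO mice alone, with 1 uninjured mouse, assumed to vary like the other groups, Abca1 had 2.53 (0.622) and 2.33 (0.630), Abcg1 9.46 (0.622) and 9.20 (0.630), Trem2 was 0.20 at 7 d, and the genes called numbered 0 at each time.

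Leaving out each mouse in turn, Abca1 ran from 2.01 to 2.49 at 7 d and 1.89 to 2.33 at 14 d, Abcg1 from 2.91 to 6.43 and 2.99 to 6.17, and Apoe from 1.76 to 3.14 and 2.62 to 4.13. Trem2 ran from -0.40 to 0.22 at 7 d and -0.31 to 0.15 at 14 d, and Tyrobp from -0.18 to 0.38 at 7 d. Between genotypes Apoe ran from -0.60 to 0.22, Trem2 from -0.41 to 0.036 and Tyrobp from -0.49 to 0.10. The genes called ran from 0 to 36 at 1 d, 4 to 36 at 7 d and 0 to 56 at 14 d, and those of the 5 from 0 to 3 at both late times. In Cluster 7 at 14 d Abca1 ran from 0.76 to 1.29, with 0 to 1 of the genes called. Over all alternatives the genes called at 1, 7 and 14 d and between genotypes ran from 0 to 46, 36, 20 and 4 in Cluster 6 (3, 0, 0 and 0 as reported), to 25, 25, 47 and 0 in Cluster 5 (2, 0, 0 and 0), to 29, 97, 69 and 20 in Cluster 7 (15, 3, 15 and 1) and to 80, 148, 221 and 35 in endothelial cells (1, 0, 0 and 0). The Apoe share in microglia differed by 49.2 points in batch 1 (exact p = 0.0714) and 48.4 in batch 2 (exact p = 0.143), against 53.8 without the shallow libraries (exact p = 0.0182) and 44.8 under the conditions that cell names give (exact p = 0.0198). Abcg1 had 6 UMIs in uninjured microglia.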
